A study of Mus musculus with 5 samples.

Results

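The Gata genes on autosomes, Gata2, Gata3, Gata4, Gata5 and Gata6, were examined for trimethylation of lysine 27 on histone H3 (H3K27me3) in mouse dermal fibroblasts at E14.5 and E18.5. They were chosen by gene symbol and position, and are 5 of 21938 protein-coding genes on the assembled chromosomes in the GENCODE annotation of GRCm38. ChIP-seq recovers marked chromatin fragments by antibody, and a peak is a run of bases where those fragments are in excess over the local background. Peak lists of 4 libraries were used, 2 per stage, from wild-type dermal preparations whose cells were expanded in culture, with peaks called in each library on its own. The 2 stages were set side by side because the study asks about H3K27me3 and chromatin accessibility in developing dermal fibroblasts. The sample labels call the later stage day 17 and the earlier day 14, while the study's text stages them as E18.5 and E14.5, the names used here. Labels and text also differ on culture medium, shearing and library kit. The text describes embryonic skin as the source and does not say whether the replicates are separate litters, so a p-value measures only the spread between libraries.

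GATA factors are zinc finger transcription factors that bind a short GATA sequence. Gata2 and Gata3 act mainly in blood, lymphoid cells, kidney, nervous system and skin epithelium, and Gata4, Gata5 and Gata6 in heart, gut endoderm and gonad. H3K27me3 is laid down by Polycomb repressive complex PRC2, often in broad domains over CpG-rich start regions of developmental regulators that a cell does not use. The fibroblast label was checked with 14 fibroblast genes, among them Col1a1, Pdgfra and Twist2: 0 of 14 had a start-site peak (within 3000 bp) in any list, which is a reading of the mark and not of expression. Most markers of some other cell types were without a peak too (6 of 8 immune, 5 of 8 melanocyte and Schwann cell genes), and the share of coding genes marked in both replicates was 19.5% at E14.5 and 12.2% at E18.5, so this check is a weak one.

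The lists are of unequal length. The E14.5 replicates had 21546 and 16574 peaks and the E18.5 replicates 10429 and 7107, and covered length went from 52.8 Mb in the longest list to 14.3 Mb in the shortest. They carry no read counts. The study's methods describe bringing E18.5 wild-type and Kdm6b knockout libraries to the read depth of its other samples. That wording matches its separate comparison of wild type and knockout. It does not say outright whether the E18.5 libraries used here are included. The depth behind each list cannot be checked from the lists. Less mark and fewer reads cannot be told apart from these lists. The authors' fold enrichment, a ratio of the pileup to the local background, was therefore read only as a rank within its own list.

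Within 3000 bp of a start site, all 5 Gata genes were marked by a peak in all 4 libraries. Among protein-coding genes, 19.5% were so marked in both E14.5 libraries, 12.2% in both E18.5 libraries and 12.1% in all 4. Of the coding genes marked in each E14.5 library, 61.9% were also marked in both E18.5 libraries, against 5 of 5 Gata genes. The Gata peaks were wide ones: each of the 5 genes had a peak of 5 kb or wider in both E14.5 libraries. Of all coding genes with such a peak, 96.3% still had some peak in both E18.5 libraries, so that retention at the Gata genes is close to that of other genes with wide peaks. A peak of 10 kb or wider was present in all 4 libraries at Gata2, Gata3, Gata4 and Gata6, and at 0.789% of coding genes. Of the coding genes with a peak this wide in both E14.5 libraries, 47.5% had one in both E18.5 libraries, against 4 of 4 Gata genes.

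**Figure D1:**
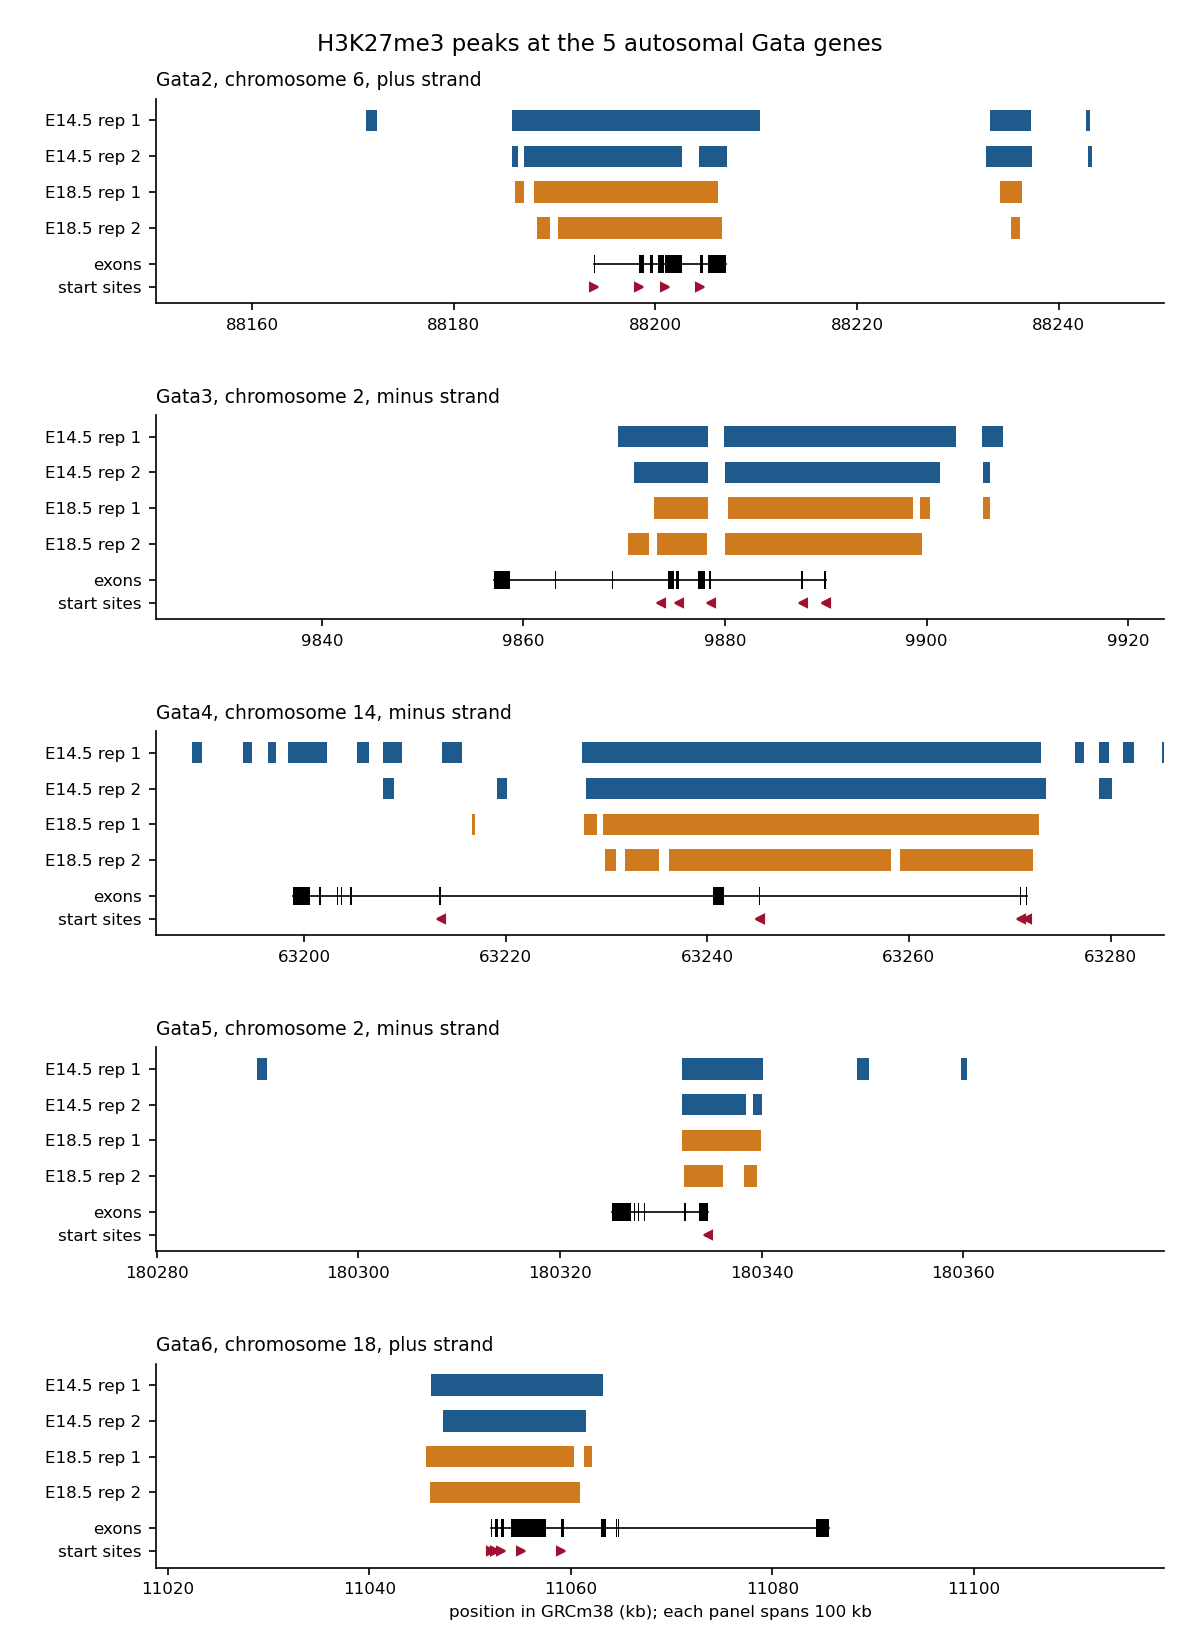
Peaks of the 4 libraries around each Gata gene, drawn to scale in GRCm38 with 100 kb in each panel (position in kb on the x axis, 1 library per row). Bars are peaks, blue at E14.5 and orange at E18.5, black boxes are exons of any transcript and red arrowheads are start sites in the direction of transcription. Every gene has a peak over or beside its start sites in all 4 rows, and the Gata4 peak of E18.5 replicate 2 is in pieces.

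Gata2, which maintains blood stem and progenitor cells and acts in endothelium, lies on chromosome 6 from 88193891 to 88207032 on the plus strand, with 4 start sites whose windows span 16555 bp. Peaks covered 16555 and 14561 bp of these windows in the E14.5 replicates, then 15284 and 15756 bp in the E18.5 replicates. The stages overlapped, since the lowest and the highest value were both from E14.5. The mean was 15558 ± 1410 bp at E14.5 and 15520 ± 333.8 bp at E18.5 (SD, n = 2), a difference of 0.244%, smaller than the spread between replicates (exact permutation test, two-sided, p = 1). Its direction turned without E14.5 replicate 1 (a decrease of -6.59%, that is, a higher mean at E18.5) and without E18.5 replicate 1 (-1.27%).

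The outer parts of the Gata2 domain varied more than its windows. Peaks joined to the gene reached 8138 and 6882 bp upstream in the E14.5 replicates, then 5916 and 3532 bp in the E18.5 replicates. Both E18.5 libraries stopped closer to the gene, with detached pieces of 868 and 1290 bp further upstream, and E14.5 replicate 2 had such a piece of 567 bp. At the other end, both E14.5 libraries covered the last base of the gene and went 3361 and 98 bp past it, while the E18.5 libraries stopped 858 and 386 bp short. Peaks touching the Gata2 windows had a summed width of 24641 and 18443 bp in the E14.5 replicates, then 18200 and 16288 bp in the E18.5 replicates, without overlap between the stages (p = 0.333 by the exact permutation test, the lowest value open to 2 against 2 libraries). Counted over the union of the 4 lists' peaks at the gene, so that detached pieces are included, the lengths were 24641 and 19010 bp, then 19068 and 17578 bp. These overlapped between the stages, so the separation at Gata2 depends on how detached pieces are treated.

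The 4 lists shared 15427 bp at Gata2, or 81.2% of the bases covered in both E14.5 libraries. The longest of the 3 shared stretches, from 88190359 to 88202649, held all start sites but the one at 88204445, which lay in the stretch from 88204329 to 88206174. Between these stretches E14.5 replicate 2 had no peak, and the other 3 lists bridged the gap.

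Gata3 directs T helper 2 cells and is required for the inner root sheath of the hair follicle and for kidney formation. It lies on chromosome 2 from 9857078 to 9890034 on the minus strand, with 6 start sites in 19180 bp of windows. Peaks covered 17651 and 17092 bp of the windows in the E14.5 replicates, then 14942 and 16543 bp in the E18.5 replicates. Both E18.5 values were below both E14.5 values. The mean was 17371.5 ± 395.3 bp at E14.5 and 15742.5 ± 1132 bp at E18.5 (SD, n = 2), a decrease of 9.38% (p = 0.333, exact permutation test, two-sided), and of 4.77% without E18.5 replicate 1. With start sites of protein-coding transcripts only, the decrease was 2.49%. In the gene body, 19152 and 17275 bp were covered in the E14.5 replicates, then 15125 and 17006 bp in the E18.5 replicates, again without overlap between the stages.

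The Gata3 domain lay in the upstream part of the gene and beyond it. It reached 12925 and 11289 bp past the 5′ end of the gene in the E14.5 replicates, then 8606 and 9475 bp in the E18.5 replicates, where replicate 1 had a detached piece of 983 bp further out. Between 12276 and 15859 bp at the 3′ end of the gene had no peak, depending on the library, and the covered exon length was 1933 bp in each of the 4 libraries, or 48.6% of exon bases. The bases that both E14.5 lists covered and both E18.5 lists lacked included 970 bp upstream, from 9900354 to 9901323. Shared by all 4 lists were 23510 bp, or 82.3% of the bases covered in both E14.5 libraries.

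At Gata3 the mark was interrupted at a start site. The stretch from 9878367 to 9879895, 1529 bp inside the gene, had no peak in any of the 4 lists, while peaks flanked it on both sides in each. It contains the start site at 9878600, from which a protein-coding transcript begins, and 196 bp of exon. The nearest peak edge was 234 and 323 bp from this start site in the E14.5 replicates, then 319 and 370 bp in the E18.5 replicates. The other 5 start sites of Gata3 were inside a peak in all 4 lists. A coding start site outside all 4 lists with a peak within 3000 bp on both sides in each was found at 2.72% of the coding genes with a peak in all 4 libraries, and at 2.89% of those with a peak of 10 kb or wider in all 4. Gata3 was the 1 Gata gene with such a start site. The interrupted stretch had 5.30 CpG per 100 bp, above the 2.64 of the Gata3 bases shared by the 4 lists. Repeat-masked bases made up 11.8% of it, and 72 of its 72 pieces of 100 bp matched 1 place in the genome, that is, all of them were unique by this measure. The gap was chosen for mention after its values were seen.

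**Figure D2:**
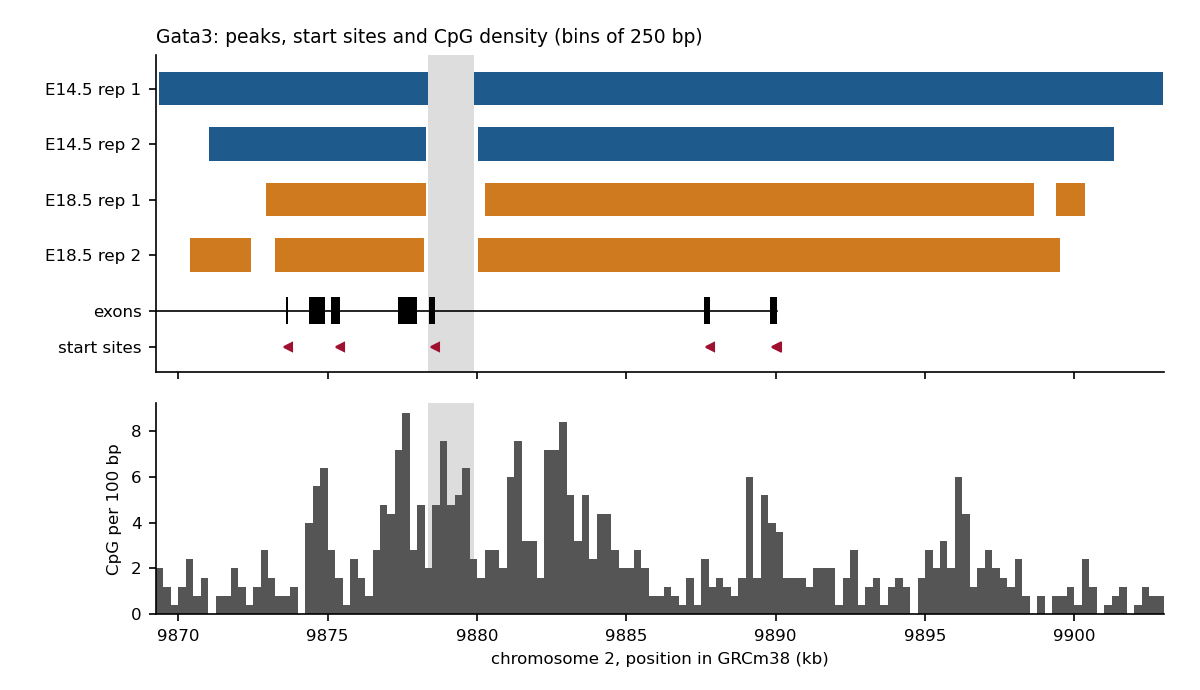
The Gata3 locus on chromosome 2 (position in kb, GRCm38), with the peaks of each library, exons and start sites above and CpG per 100 bp in bins of 250 bp below. The grey band is the stretch of 1529 bp that lies in no peak of any list and holds the start site at 9878600, and the bins inside it are among the CpG-rich bins of the locus.

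Gata4, a regulator of heart muscle, foregut endoderm and gonad, carried the widest peaks of the family. It lies on chromosome 14 from 63198922 to 63271692 on the minus strand, with 5 start sites in 18594 bp of windows. Peaks covered 12997 and 11455 bp of the windows in the E14.5 replicates, then 10783 and 10168 bp in the E18.5 replicates. Both E18.5 values were the lower ones. The mean was 12226 ± 1090 bp at E14.5 and 10475.5 ± 434.9 bp at E18.5 (SD, n = 2), a decrease of 14.3% (p = 0.333, exact permutation test, two-sided), and of 8.55% without E14.5 replicate 1. With a stricter q-value, or with as many top peaks in each library as the shortest list holds, the decrease was 6.75%. Covered gene body was 52583 and 45768 bp in the E14.5 replicates, then 43580 and 39021 bp in the E18.5 replicates, without overlap between the stages.

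The main Gata4 peak was 45508 and 45539 bp wide at E14.5, the peak of rank 19 and of rank 7 by width in its list. It was 43201 bp wide in E18.5 replicate 1, where it was rank 5. In E18.5 replicate 2 the same stretch was divided, and its widest pieces were 22004 and 13109 bp. The 5′ edge moved little: peaks reached 1420 and 1862 bp upstream of the gene in the E14.5 replicates, then 1190 and 575 bp in the E18.5 replicates. The 3′ part of the gene differed more, since E14.5 replicate 1 had peaks to its end, and the other libraries left 8880, 17711 and 30973 bp bare. In E14.5 replicate 1 the 4 peaks there were 3886, 1216, 1899 and 1984 bp wide and stood between the 13.5 and 67.5 percentile of fold enrichment, where the main peak stood at 99.6. The start site at 63213607, among those peaks, was in no peak of any list, and the other 4 start sites were covered in all 4. Shared by the 4 lists were 39596 bp in 4 stretches, or 85.6% of the bases covered in both E14.5 libraries.

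Gata5, which acts in the endocardium and gut epithelium, had the shortest domain. It lies on chromosome 2 from 180325133 to 180334699 on the minus strand, with 1 start site and a window of 6001 bp. Peaks covered 5624 and 5599 bp of the window in the E14.5 replicates, then 5620 and 3856 bp in the E18.5 replicates. E18.5 replicate 2 stood apart, and the other 3 values were nearly equal. The mean was 5612 ± 17.7 bp at E14.5 and 4738 ± 1247 bp at E18.5 (SD, n = 2), a decrease of 15.6%, and the stages overlapped (exact permutation test, two-sided, p = 0.667). That difference rests on E18.5 replicate 2: without it the decrease was -0.152%, and without E18.5 replicate 1 it was 31.3%. Inside the gene the edge was nearly fixed, with 2624, 2599, 2620 and 2356 bp of the gene body covered in E14.5 replicates 1 and 2 and E18.5 replicates 1 and 2. Upstream the reach was 5407 and 3790 bp in the E14.5 replicates, then 5259 and 1500 bp in the E18.5 replicates. Detached pieces of 850 and 1286 bp lay further upstream, in Gata5os, in E14.5 replicate 2 and E18.5 replicate 2. The 4 lists shared 4469 bp, or 61.7% of the bases covered in both E14.5 libraries, the lowest share of the family.

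Gata6, needed in heart and in visceral endoderm, lies on chromosome 18 from 11052064 to 11085635 on the plus strand, with 6 start sites in 12984 bp of windows. Peaks covered 12984 and 12441 bp of the windows in the E14.5 replicates, then 11926 and 11882 bp in the E18.5 replicates. The stages did not overlap, but with windows of 1000 bp, or with start sites of protein-coding transcripts only, all 4 libraries covered the windows in full. The mean was 12712.5 ± 384 bp at E14.5 and 11904 ± 31.1 bp at E18.5 (SD, n = 2), a decrease of 6.36% (p = 0.333, exact permutation test, two-sided). Summed peak width did overlap, at 17125 and 14143 bp in the E14.5 replicates, then 15439 and 14883 bp in the E18.5 replicates, a decrease of 3.03%. In the gene body, 11154 and 9441 bp were covered in the E14.5 replicates, then 8977 and 8882 bp in the E18.5 replicates, a decrease of 13.3% without overlap. The domain reached 5971 and 4702 bp upstream in the E14.5 replicates, then 6462 and 6001 bp in the E18.5 replicates, so its outer edge was no closer to the gene at the later stage. All start sites of Gata6 were covered in all 4 lists, and between 22418 and 24690 bp at the 3′ end of the gene had no peak. The 4 lists shared 1 stretch of 12919 bp, from 11047362 to 11060280, or 91.4% of the bases covered in both E14.5 libraries.

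Across the family, each E18.5 library had a shorter covered window length than either E14.5 library at 3 of 5 genes, Gata3, Gata4 and Gata6. The share was 84.2% among coding genes marked in each E14.5 library, so the count at the Gata genes is not above that background. Without E14.5 replicate 2 the count was 5 of 5, against 94% of coding genes with a peak in E14.5 replicate 1. In the gene body the count was also 3 of 5 (Gata3, Gata4 and Gata6), where 82.3% of coding genes with a body peak in each E14.5 library were lower. By summed peak width it was 3 of 5 again, here Gata2, Gata3 and Gata4, against 88.8%. No Gata gene was higher in both E18.5 libraries by these measures.

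Decreases at the Gata genes were set beside those of all marked genes and of genes with wide peaks in all 4 libraries. The median decrease of window length was 9.38% over the 5 genes, from 0.244% at Gata2 to 15.6% at Gata5, against 58.2% over the 4270 coding genes marked in both E14.5 libraries and 37.8% over the 2645 with a peak in all 4. A window inside a wide domain can be covered in full at both stages, which limits the decrease it can show. Summed peak width has no such limit, and its median decrease was 17.2% for the Gata genes, 63.6% for the marked genes and 45.6% for those with a peak in all 4 libraries. Over the 173 coding genes with a peak of 10 kb or wider in all 4 libraries the median was 20.7%. Both sets defined on all 4 libraries leave out genes without such a peak in both E18.5 libraries, which limits their decreases. The 173 genes include Gata2, Gata3, Gata4 and Gata6. Of these 173 genes, 47.4% had a smaller decrease than Gata2, 35.8% than Gata3, 31.2% than Gata4 and 1.16% than Gata6 (3.03%). Gata2, Gata3 and Gata4 thus lay well inside the range of genes that had peaks this wide at both stages. Gata5 has no peak of that width and is not among them, and no test was made of the difference. The positions of Gata2, Gata4 and Gata6 depend on single libraries. Without E14.5 replicate 1 the E14.5 summed width at Gata2 was 18443 bp, against 18200 and 16288 bp at E18.5. At Gata6 it was then 14143 bp, below the 15439 and 14883 bp of E18.5. Without E18.5 replicate 2 the E18.5 summed width at Gata4 was 43201 bp, against 47492 and 45539 bp at E14.5.

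**Figure D3:**
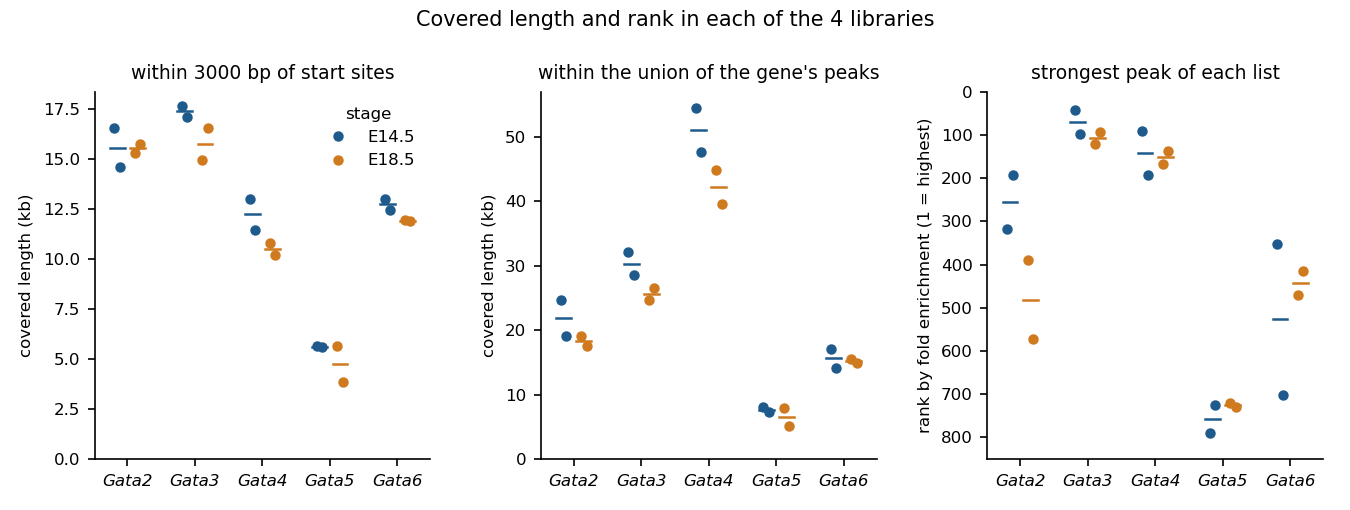
Length covered by peaks within 3000 bp of start sites (left, kb), length covered within the union of the peaks that the 4 lists have at the gene (middle, kb) and rank by fold enrichment of the strongest peak within its list (right, rank 1 at the top), for each Gata gene. Dots are libraries (n = 2 per stage) and bars are stage means. Gata4 has the most covered length in the middle panel, from 39596 to 54493 bp, and Gata5 the least, from 5142 to 8031 bp.

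The strongest peak of each Gata gene ranked high in its list. At Gata2 its rank by fold enrichment was 318 and 193 in the E14.5 replicates, then 390 and 573 in the E18.5 replicates. At Gata3 the ranks were 41 and 98, then 120 and 93, and at Gata4 90 and 192, then 166 and 137. Gata3 thus held the highest rank of the family in each of the 4 libraries. Gata5 had ranks of 789 and 726 in the E14.5 replicates, then 721 and 729 in the E18.5 replicates. At Gata6 they were 353 and 701, then 471 and 414. Gata5 was the lowest of the 5 genes in all 4 lists, and the ranks of the stages overlapped at each gene but Gata2.

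As a percentile of its list, the strongest peak stood between 95.6 and 99.8 at E14.5 and between 89.8 and 98.9 at E18.5. The percentile was lower in both E18.5 libraries at 5 of 5 Gata genes and at 73.3% of the coding genes with a peak in all 4 libraries. With as many top peaks by −log10 q-value in each library as the shortest list holds, it was 1 of 5, namely Gata2, against 32.7% of coding genes with such a peak in all 4 libraries. With ranks by width in the lists as deposited it was 1 of 5, namely Gata3, against 71.6%. With ranks by −log10 q-value it was 5 of 5, against 76.6%. Without E14.5 replicate 1 or 2, or E18.5 replicate 1 or 2, it was 5 of 5 each time, against 76%, 87.1%, 88.6% and 78%. These settings were chosen after seeing the data, and most coding genes share the direction in all but the lists of equal number, so nothing particular to the Gata genes is read from the count.

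The 250 bases before a start site were taken from a RefSeq promoter table (GRCm38.p6) that matched 3 of the 5 genes, Gata2, Gata3 and Gata5. Entries for Gata4 and Gata6 were missing. For each gene 1 is shown, without the bases that GENCODE places in an exon, because the Gata3 start site was bare while those of Gata2 and Gata5 were covered. Each is written 5′ to 3′ on the strand of the gene, with every CG dinucleotide in capitals.
Gata2, upstream start, chr6:88193641-88193890, plus strand: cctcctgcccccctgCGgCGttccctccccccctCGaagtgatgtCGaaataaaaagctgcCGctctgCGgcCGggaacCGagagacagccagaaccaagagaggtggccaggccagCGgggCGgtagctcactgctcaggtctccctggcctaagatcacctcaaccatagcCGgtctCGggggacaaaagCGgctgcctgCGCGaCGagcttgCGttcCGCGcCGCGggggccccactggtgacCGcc
Gata3, chr2:9878601-9878850, minus strand: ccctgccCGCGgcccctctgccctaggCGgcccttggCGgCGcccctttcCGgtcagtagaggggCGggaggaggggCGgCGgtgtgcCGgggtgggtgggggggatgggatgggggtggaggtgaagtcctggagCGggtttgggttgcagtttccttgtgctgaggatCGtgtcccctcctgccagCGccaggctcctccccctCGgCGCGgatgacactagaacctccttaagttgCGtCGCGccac
Gata5, chr2:180334700-180334929, minus strand: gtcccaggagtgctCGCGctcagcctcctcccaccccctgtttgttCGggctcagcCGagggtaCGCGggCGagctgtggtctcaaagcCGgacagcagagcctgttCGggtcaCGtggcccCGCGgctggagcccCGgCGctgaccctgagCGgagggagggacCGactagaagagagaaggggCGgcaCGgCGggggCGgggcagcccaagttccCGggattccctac

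RefSeq lists another start for Gata2, preceded by chr6:88198414-88198663, which lies in the annotated gene and is not printed. Both Gata2 windows of 250 bp and that of Gata5 lay entirely in a peak in all 4 lists, and the Gata3 window overlapped none (0 bp in each). In CpG content the 4 windows were alike: 22 and 24 CG dinucleotides at Gata2, 19 at Gata3 and 22 at Gata5, against a median of 6 over 32841 promoters of the same length. Fewer CG were found in 85.2%, 88.0%, 80.3% and 85.2% of these promoters, in the same order. GC content was 67.2% and 74.0% at Gata2 and 70.0% at both Gata3 and Gata5, against a median of 52.4%. The motif AGATAA, searched on both strands (its reverse complement is TTATCT), was in 0 of the 4 windows and in 9.99% of all promoters. This says only that these letters are not in these windows.

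Base composition differed between the inner and the outer parts of the domains. The bases shared by all 4 lists held 3.79, 2.64, 2.15, 3.71 and 3.65 CpG per 100 bp at Gata2, Gata3, Gata4, Gata5 and Gata6. The bases covered in some lists but not in all held 1.95, 1.03, 1.03, 1.40 and 0.809 CpG per 100 bp in the same order. At each of the 5 genes the shared part was thus the CpG-richer part. The share of other marked genes with this direction was not taken, so it is not read as particular to the Gata genes. Each list as a whole held 1.69 and 2.10 CpG per 100 bp of peak in the E14.5 replicates, then 2.38 and 2.72 in the E18.5 replicates, all above the 0.826 of the genome. Of the pieces of 100 bp taken from the Gata domains, between 97.7% (Gata3) and 100% (Gata5) matched 1 place in the genome.

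Other annotated genes lay in the same domains. Noncoding genes with a start-site window in a member's peak in all 4 libraries were Gm38708 at Gata2, the antisense Gm13256 at Gata3, the antisense Gata5os at Gata5 and 1010001N08Rik at Gata6. At Gata3, 4930412O13Rik and 9230102O04Rik, both annotated as protein-coding, also shared the domain. The windows of 9230102O04Rik were covered in full, 11548 of 11548 bp, in each of the 4 libraries. No neighbour of Gata4 shared a peak with it. The lists cannot assign a shared peak to 1 of these genes.

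Beyond the domains, within 50 kb of each gene, separate peaks were few at E18.5, when the lists as a whole were also shorter. No background over other genes was taken for these counts. Gata4 had 9 and 2 such peaks in the E14.5 replicates, then 1 and 0 in the E18.5 replicates. Those in Neil2 or near its start sites were in E14.5 replicate 1 alone. Gata5 had 4 and 1 such peaks in the E14.5 replicates, then 1 and 0 in the E18.5 replicates. The widest, at B230312C02Rik and Mir1a-1, measured 5443 and 4605 bp in the E14.5 replicates, then 4230 and 0 bp. Near Gata3, a peak from 9905527 to 9907623 measured 2097 and 715 bp in the E14.5 replicates, 676 bp in E18.5 replicate 1 and 0 bp in E18.5 replicate 2. Gata6 had none in any list. Gata2 alone had a separate peak in all 4 lists, downstream of the gene in Dnajb8 between 88232790 and 88237345, with widths of 4076 and 4556 bp in the E14.5 replicates, then 2255 and 834 bp in the E18.5 replicates. Both E18.5 widths were below both E14.5 widths there.

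By the width of their peaks, the genes most like each member were found among all other coding genes, from the percentile of summed peak width in each of the 4 libraries. Among the closest were Six2 and Tbx20 for Gata2, Onecut1 for Gata3, Pax6 and Hoxb13 for Gata4, Crhr2 and Hs3st4 for Gata5, and Foxe1 and Lhx9 for Gata6. The mean absolute difference was at most 0.0912 percentile points for the genes listed with Gata2, Gata3, Gata4 and Gata6, and 0.406 and 0.413 points for those listed with Gata5. Onecut1, for example, had summed widths of 31720 and 27129 bp in the E14.5 replicates, then 24369 and 23370 bp in the E18.5 replicates, beside 32077 and 28564 bp and then 23731 and 26481 bp at Gata3.

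Of 6 other genes with a GATA-type zinc finger, 2 were marked in both E14.5 libraries and 0 in both E18.5 libraries, beside 19.5% and 12.2% of coding genes, so little can be read from so short a list. No list had a peak near a start site of Gata1, Gatad2a, Gatad2b or Zglp1. Trps1, a repressor that binds GATA sequences and acts in hair follicle and cartilage, had 6904 and 1767 bp of its windows covered at E14.5 and 0 bp in both E18.5 libraries. Gatad1 had 308 and 366 bp and then 0 bp.

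Among 11 genes for proteins that work with GATA factors, 5 were marked in both E14.5 libraries and 4 in both E18.5 libraries, again to be read beside 19.5% and 12.2%. The 4 were Lmo1, Lmo2, Tal1 and Cbfa2t3. Tal1, a partner of Gata2 in blood progenitors, had windows covered in full (9083 bp) in all 4 libraries. Its summed peak width was 25145 and 20004 bp in the E14.5 replicates, then 16600 and 15803 bp in the E18.5 replicates. Lmo2, which bridges the same complex, had 8390 and 6526 bp of its windows covered in the E14.5 replicates, then 6699 and 3282 bp in the E18.5 replicates. Tal2 was marked at E14.5 alone. The direct GATA partners Zfpm1 and Zfpm2 (the FOG proteins) had no peak in 3 and 4 of the 4 lists.

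Partners and targets of the Gata genes were counted by tissue, with 19.5% and 12.2% of coding genes marked in both E14.5 and in both E18.5 libraries as the background. Of 14 heart genes, 7 were marked in both E14.5 libraries and 6 in both E18.5 libraries, and the 6 were transcription factors: Nkx2-5, Tbx5, Tbx20, Hand1, Hand2 and Isl1. Mef2c and Srf, transcription factors of the same list, had 0 bp covered in all 4 libraries. The contractile gene Myh6 was marked at E14.5 alone, and 7 of the 14, Mef2c and Srf included, had no peak in any list. Of 14 endoderm and gut genes, 12 and then 10 were marked, with a median decrease of window length of 5.39% over the 12. Windows of Foxa2, Cdx2, Eomes and Pdx1 were covered in full in all 4 libraries, so their decrease was 0%. Their summed peak widths were lower in both E18.5 libraries at Foxa2 and Pdx1, and overlapped between the stages at Cdx2 and Eomes. At Foxa2 they were 40075 and 35637 bp in the E14.5 replicates, then 23040 and 24039 bp in the E18.5 replicates. Of 14 blood and endothelial genes, 8 and then 7 were marked, with a median decrease of 41.8% over the 8. Of 15 genes of T cells, kidney and skin appendages, 11 and then 8 were marked, with a median decrease of 39.6% over the 11. The corresponding medians for the heart genes and the cofactors were 1.71% and 33.1%, all to be read beside the 58.2% of marked coding genes. Covered window length was the same in all 4 libraries at Nkx2-5 (9445 bp) and Hand1 (6672 bp), which limits the heart median. Summed peak widths were lower in both E18.5 libraries at Nkx2-5, Hand1, Hand2, Isl1 and Myh6. They overlapped between the stages at Tbx5 and Tbx20. No test was made over any list.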

How the data were processed

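H3K27me3 ChIP-seq peak lists of 4 libraries were analysed, and the labelled input library was not analysed here. The submitters' processing notes name Bowtie2 2.3.5.1, SAMtools 1.9, MACS2 2.2.7.1, deepTools 3.5.1 and the mm10 build. The control and the read filters of the peak call are not given in the sources used here, and it is unclear whether the stated subsampling includes these E18.5 libraries. The deposited lists hold a fold enrichment (a ratio of pileup to local background) for every peak, and −log10 values of its p and its q. Depth and the precision of a single peak cannot be checked from the lists, and a missing peak means only that the list's threshold was not passed.

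Start sites came from GENCODE vM21, with the mitochondrial genes left out. Covered length was the number of bases in peaks within 3000 bp of any start site, and an overlap of 1 bp counted as a peak. Stages were compared per gene by permutation over the libraries, exact and two-sided. Members and lists were chosen with earlier results of these data known. Named genes were the 5 members, genes sharing their peaks, the 2 nearest genes by summed peak width, and list genes where counts were small, and some of these are not reported here. Cell type markers were read for fibroblast, keratinocyte, endothelial, immune, melanocyte and Schwann, and skeletal muscle genes. Sequences came from RefSeq GRCm38.p6, and pieces of 100 bp, taken every 20 bp, were mapped with minimap2 2.31-r1302 (mapping quality of at least 30). Python 3.11.15, numpy 2.4.6, pandas 2.3.3, scipy 1.17.1, pysam 0.24.0, samtools 1.23.1 and matplotlib 3.10.9 were used, and interval arithmetic was tested on simulated data. Alternatives covered thresholds, widths, windows, gene bodies, list lengths, single libraries and the replicate block.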

Additional observations from a re-analysis of the deposited data

How the results depend on the processing

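The count of Gata genes with a peak, 5 at each stage, was the same in every setting run. Over the settings that keep all libraries, the decrease of covered length lay between 2.49% and 15.6% at Gata3. At Gata4 it lay between 6.75% and 17.4%. Its upper ends came from the union of each gene's peaks. Over start-site windows it was at most 14.4% at Gata3 and 14.3% at Gata4. At Gata2 it turned to -5.85% with windows of 1000 bp, to -1.77% in the gene body and to -0.265% with the replicate block, and was 7.85% with windows of 5000 bp and 16.05% over the union of its peaks. The cause was not tested. It was 0% at Gata5 and Gata6 with windows of 1000 bp, and 0% at Gata2 and Gata6 with protein-coding transcripts only, because those windows were covered in full. At Gata6 it was 13.3% in the gene body and 9.15% with a stricter q-value, with peaks of at least 1000 bp or with lists of equal number. Leaving out each library gave -6.59% to 6.25% at Gata2, 4.77% to 13.99% at Gata3, 8.55% to 19.4% at Gata4, -0.152% to 31.3% at Gata5 and 4.32% to 8.32% at Gata6. The number of genes lower in both E18.5 libraries was 1 with windows of 1000 bp (Gata3), 2 with protein-coding transcripts only (Gata3 and Gata4) and 3 to 5 without a library. With the union of a gene's peaks, chosen after seeing the data, it was 2 (Gata3 and Gata4). Among these settings the share of coding genes was taken only without E14.5 replicate 2. It was 94% there, beside 5 Gata genes. The other counts have no such background and are not read as a result about the Gata genes. The number with a lower rank percentile was 5 to 5 without a library (76% to 88.6% of coding genes), 5 by −log10 q-value (76.6%), 1 with lists of equal number and 1 by width (the cause was not tested), all chosen after seeing the data. With the replicate block, the other decreases were 9.28% at Gata3, 14.1% at Gata4, 15.6% at Gata5 and 6.32% at Gata6. Same-numbered libraries share only a number, and over 4270 coding genes their deviations correlated with r = 0.169. With 2 against 2 libraries the exact p cannot go below 0.333 under any setting.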

Other observations

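Markers of other cell types of the skin were read beside the coding genes as a whole, with no test over any list. Of all coding genes, 19.5% were marked in both E14.5 libraries and 12.2% in both E18.5 libraries. The same number of genes was marked at both stages for keratinocytes (6 of 12), endothelium (5 of 10) and melanocytes and Schwann cells (3 of 8), and the median decrease of their covered window length was 35.0%, 43.0% and 60.6%, and at each of these 14 genes both E18.5 values were below both E14.5 values. Over coding genes with a peak in all 4 libraries the median decrease was 37.8%, over those marked in both E14.5 libraries it was 58.2%, and 84.2% of the latter were lower in both E18.5 libraries, so nothing particular to these markers is read from the values. Of 8 immune genes, 2 were marked in both E14.5 libraries and 0 in both E18.5 libraries. Cd3e was marked at E14.5 alone, with 10093 and 1419 bp covered in the E14.5 replicates. Of 7 skeletal muscle genes, 5 had peaks in both E14.5 libraries and 4 in both E18.5 libraries. The median decrease of window length over the 5 was 36.1%. Within that list, the windows of Pax7, a transcription factor of muscle progenitors, were covered in full (6522 bp) in all 4 libraries. Its summed peak width was 38793 and 32712 bp in the E14.5 replicates, then 22381 and 20053 bp in the E18.5 replicates. Myf5 had 3359 and 463 bp covered in the E14.5 replicates and 0 bp in both E18.5 libraries.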
